A study of Zea mays with 6 samples.

Results

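The genes described here are 140 neighbouring rows of a maize (Zea mays) anther gene count table, from Zm00001d021621 to Zm00001d021845 by identifier number. The range covers 199 rows of the table, which has 46430 rows in all, and a row was taken as a member when it had at least 10 counts in 3 or more of the 6 libraries. The range was selected on the measured difference between zmrpn1 and wild-type (WT) anthers in these same libraries: it was chosen by the number of genes called different within windows of neighbouring genes. Counts of called members, their directions and the size of their changes are therefore given as a description, without a test of their own, and nothing is drawn from them about the neighbourhood.

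The study made RNA-seq libraries from anthers labelled as stages S3 to S5, with 3 libraries of WT plants, whose titles give the genotype code AA, and 3 of zmrpn1 plants, with the code aa. The zmrpn1 plants are labelled as a ZmRPN1 knockout and their titles hold the word Mutator. Mutator is also the name of a family of mobile DNA elements used to make insertion mutants in maize. The titles do not say if an insertion is meant. The labels do not give plant age, inbred background, the kind or site of the mutation or the number of mutant alleles studied. They also do not say how mutant and WT plants were related or if each library had its own plants. The error of a comparison is thus the spread between these libraries, which may be technical. In bulk anther RNA, fewer cells of a type and less RNA per cell cannot be told apart.

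An anther is the pollen-bearing organ of the flower, in which cells that will undergo meiosis are surrounded by wall layers, the innermost of which, the tapetum, feeds the developing pollen. Genes that lie side by side on a plant chromosome are inherited together, can share regulatory DNA or chromatin state, and are in some cases tandem copies of each other. Identifiers that begin with Zm00001d belong to the B73 RefGen_v4 gene annotation, in which numbers run along the chromosomes, and the rows of this range stand in that numerical order. Neither the count table nor the reference gene table pairs these identifiers with names or products, so no member is given a name or role here. For the same reason the level of ZmRPN1 and of anther marker genes was not analysed here.

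Library totals ran from 16203290 to 29515176 counts. Levels are in CPM, the count of a gene scaled to a fixed library total. CPM is not divided by gene length, so it compares 1 gene between libraries and not different genes with each other. Changes are log2 differences of zmrpn1 minus WT from edgeR's quasi-likelihood test over 23477 genes, each with its standard error (SE). A gene is termed called when its Benjamini-Hochberg adjusted p over all those genes was under 0.05. Values of 3 libraries are listed in the order of replicates 1, 2 and 3. Counts that overlapping neighbours or near-identical copies might share could not be separated, since neither sequences nor the strand setting of the counting was available in the sources used here.

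A large part of the rows in the range carried reads in anthers. Of the 199 rows, 140 met the count minimum, or 70.4%, against 51.1% of all rows of the table. Only rows with enough counts can be called, so choosing the range by its calls favours such rows. All rows of the table also include ENSRNA and microRNA rows, and nothing is drawn from the difference between these shares. A further 34 rows had some counts but too few, and 25 had 0 counts in all 6 libraries. The members' mean WT level ran from 0.190 to 522 CPM with a median of 12.3 CPM, against a median of 17.4 CPM over all rows that met the minimum. The median coefficient of variation between the WT libraries was 6.29% for members and 6.62% for all rows that met the minimum. Another 12 rows with identifiers from outside the range stand among the members in the table, 8 with Zm00001d identifiers and 4 with ENSRNA identifiers. Only Zm00001d001263 and Zm00001d001267 of these 12 met the count minimum, and they were not taken as members. The nearest microRNA precursor rows were zma-MIR169k, 489 rows before the first member, and zma-MIR1432, 74 rows after the last.

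Called and uncalled genes stood side by side through the whole neighbourhood. Of 138 members that entered the test, 32 were called higher and 16 were called lower in zmrpn1, and 90 were not called. Over all tested genes 12.4% were called, 6.63% higher and 5.82% lower, and since the range was chosen for its calls these shares are given beside the counts without being compared. Changes of at least 1 log2 unit were found in 12 of the higher and 8 of the lower members, 20 in all, where 2.74% of all tested genes had such changes, 1.08% higher and 1.66% lower. Of the 48 called members, 15 changed by less than 0.5 log2 units, 13 by 0.5 to 1, 9 by 1 to 2 and 11 by at least 2. The median change of the 138 members was 0.0079 log2 units, against 0.0012 for all tested genes, while their median absolute change was 0.21 against 0.10.

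**Figure D1:**
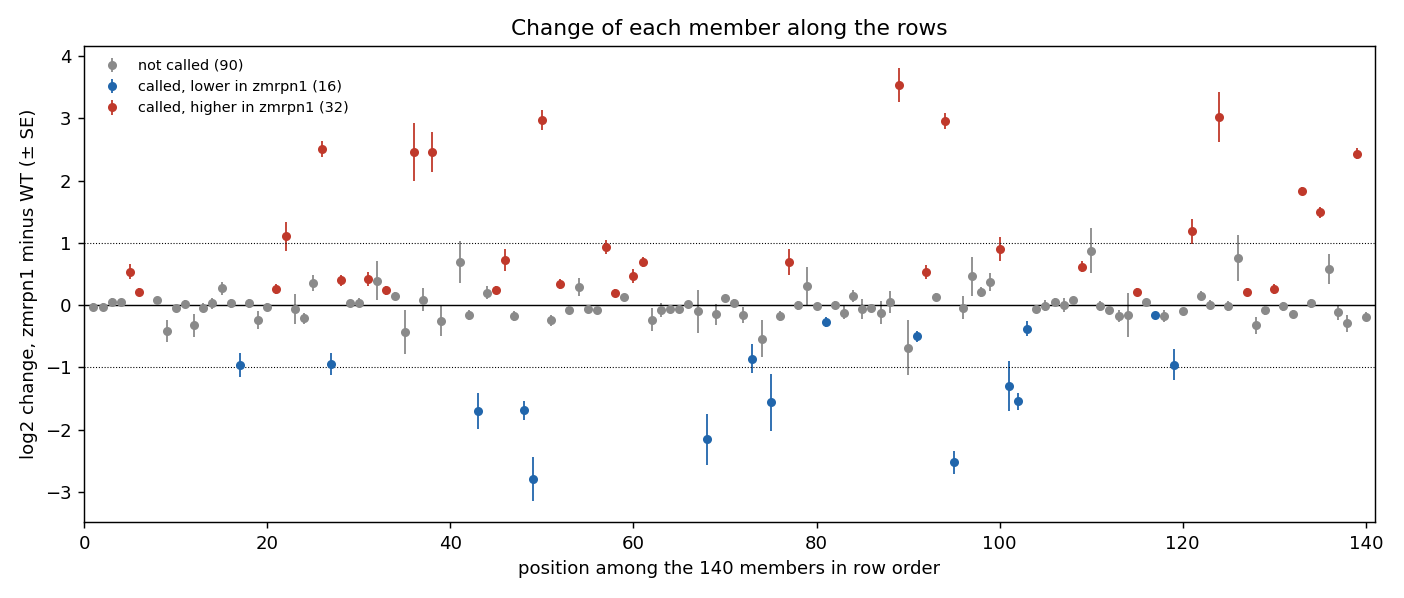
Log2 change of zmrpn1 minus WT (vertical axis, with bars of 1 SE) for the 138 tested members against their position among the 140 members in row order (horizontal axis). Red points are the 32 members called higher, blue points the 16 called lower and grey points the 90 not called, and dotted lines mark 1 log2 unit; the highest point is Zm00001d021759 at 3.54 and the lowest is Zm00001d021699 at -2.79.

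In 46 of the 48 called members the zmrpn1 libraries lay all above or all below the WT libraries. This follows in part from their being called. The 2 exceptions, Zm00001d021828 and Zm00001d021831, had changes of 0.21 and 0.26 log2 units. Among the 90 members that were not called, the groups also stood apart in 22, with zmrpn1 above WT in 12 and below in 10. Of all 138 tested members the groups did not overlap in 68, with zmrpn1 above in 42 and below in 26. Over all tested genes the groups did not overlap in 27% of genes, 15.2% with zmrpn1 above and 11.8% with it below. Since the range was chosen for its calls, these shares are given without being compared.

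The first 20 members along the rows were mostly not called, with 2 called higher and 1 called lower. The row just before the range, Zm00001d021620, and the other 9 of the 10 preceding rows that met the count minimum were not called, with log2 values between -0.098 and 0.14. The first members continued this pattern, and Zm00001d021621 had 42.2, 46.3 and 48.7 CPM in WT and 45.6, 47.6 and 42.7 CPM in zmrpn1, a log2 value of -0.030 (SE 0.064). Zm00001d021626, which took far more counts, had 234, 234 and 247 CPM in WT and 251, 248 and 248 CPM in zmrpn1. Its zmrpn1 libraries all lay above its WT libraries, yet the difference was small and not called, at 0.048 (SE 0.050) on the log2 scale.

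The next members, Zm00001d021627 and Zm00001d021629, were both called higher. Zm00001d021627 had 6.26, 6.11 and 6.78 CPM in WT and 8.87, 9.70 and 9.58 CPM in zmrpn1, a rise of 0.54 log2 units (SE 0.12). Zm00001d021629 had 184, 174 and 169.9 CPM in WT and 206, 203 and 211 CPM in zmrpn1, a rise of 0.22 log2 units (SE 0.052) and of 30.4 CPM. In both genes every zmrpn1 library exceeded every WT library. The longest stretch without a call followed, 10 members from Zm00001d021632 to Zm00001d021646, of which 9 were tested. It ended at Zm00001d021647, which had 4.40, 5.31 and 5.35 CPM in WT and 1.66, 3.27 and 2.77 CPM in zmrpn1 and fell by 0.96 log2 units (SE 0.19). Its neighbours Zm00001d021646 and Zm00001d021648 were not called, with log2 values of 0.030 (SE 0.070) and 0.033 (SE 0.072).

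Positions 21 to 40 held the first large rises. Of these 20 members 8 were called higher and 1 was called lower. Zm00001d021653 and Zm00001d021654 rose side by side. Zm00001d021653 had 20.2, 18.2 and 19.8 CPM in WT and 23.6, 24.4 and 22.5 CPM in zmrpn1 and rose by 0.26 log2 units (SE 0.079), but its call was lost without WT replicate 2 or 3 or zmrpn1 replicate 1 or 2 (0.22 to 0.27 log2 units) and with DESeq2. Zm00001d021654 had 1.71, 1.296 and 1.12 CPM in WT and 2.51, 2.83 and 3.42 CPM in zmrpn1, a rise of 1.10 log2 units (SE 0.24). The groups did not overlap in either gene. The next member, Zm00001d021655, was not called and its groups overlapped, with 2.69, 3.39 and 1.80 CPM in WT and 2.99, 1.68 and 2.69 CPM in zmrpn1.

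A rise, a fall and a rise then stood in adjacent members. Zm00001d021665 had 3.23, 3.89 and 3.76 CPM in WT and 18.4, 19.2 and 24.4 CPM in zmrpn1, so that the zmrpn1 mean was 5.70-fold the WT mean and the rise was 2.51 log2 units (SE 0.12). Zm00001d021666 went the other way, with 5.03, 4.75 and 4.44 CPM in WT and 2.56, 2.35 and 2.50 CPM in zmrpn1 and fell by 0.94 log2 units (SE 0.17). Zm00001d021667 had 13.4, 12.0 and 13.0 CPM in WT and 16.1, 16.2 and 18.7 CPM in zmrpn1 and rose by 0.40 log2 units (SE 0.094). In all 3 genes the zmrpn1 libraries stood clear of the WT libraries. The members on either side of this trio were not called. Zm00001d021662, before it, had a log2 value of 0.35 (SE 0.13) and was called in 4 of the 14 other fits, and Zm00001d021668, after it, had 121, 122 and 128 CPM in WT and 127, 125 and 132 CPM in zmrpn1.

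Further along, Zm00001d021672 rose by 0.42 log2 units (SE 0.11), a call that was lost without WT replicate 1 (0.31 log2 units), and Zm00001d021675 rose by 0.24 log2 units (SE 0.071), a call that was lost without WT replicate 2 or 3 or zmrpn1 replicate 1 or 2 (0.20 to 0.22 log2 units) and with DESeq2. Larger rises came from genes with few counts in WT. Zm00001d021679 had counts of 8, 0 and 7 in WT and of 23, 37 and 23 in zmrpn1, which corresponds to 0.391, 0 and 0.237 CPM in WT and 1.23, 1.78 and 0.885 CPM in zmrpn1. Zm00001d021681 had counts of 5, 5 and 16 in WT and of 42, 43 and 58 in zmrpn1, which is 0.244, 0.309 and 0.542 CPM in WT and 2.24, 2.06 and 2.23 CPM in zmrpn1. The lowest zmrpn1 library of each gene was above its highest WT library, and the rises were 2.46 log2 units (SE 0.46) and 2.46 log2 units (SE 0.33). The 3 members around them, Zm00001d021677, Zm00001d021680 and Zm00001d021682, were not called, with log2 values of -0.43 (SE 0.35), 0.090 (SE 0.19) and -0.26 (SE 0.24).

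Zm00001d021683 met the count minimum but not the filter of the test, so it has no call. It had counts of 22, 23 and 14 in WT and of 8, 3 and 5 in zmrpn1, and all zmrpn1 libraries lay below the WT libraries. In the fit without a filter on low counts it was called lower, at -1.92 log2 units (SE 0.48). The only other untested member was Zm00001d021632, with counts of 7, 5 and 11 in WT and of 5, 19 and 11 in zmrpn1, where the groups overlapped.

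**Figure D2:**
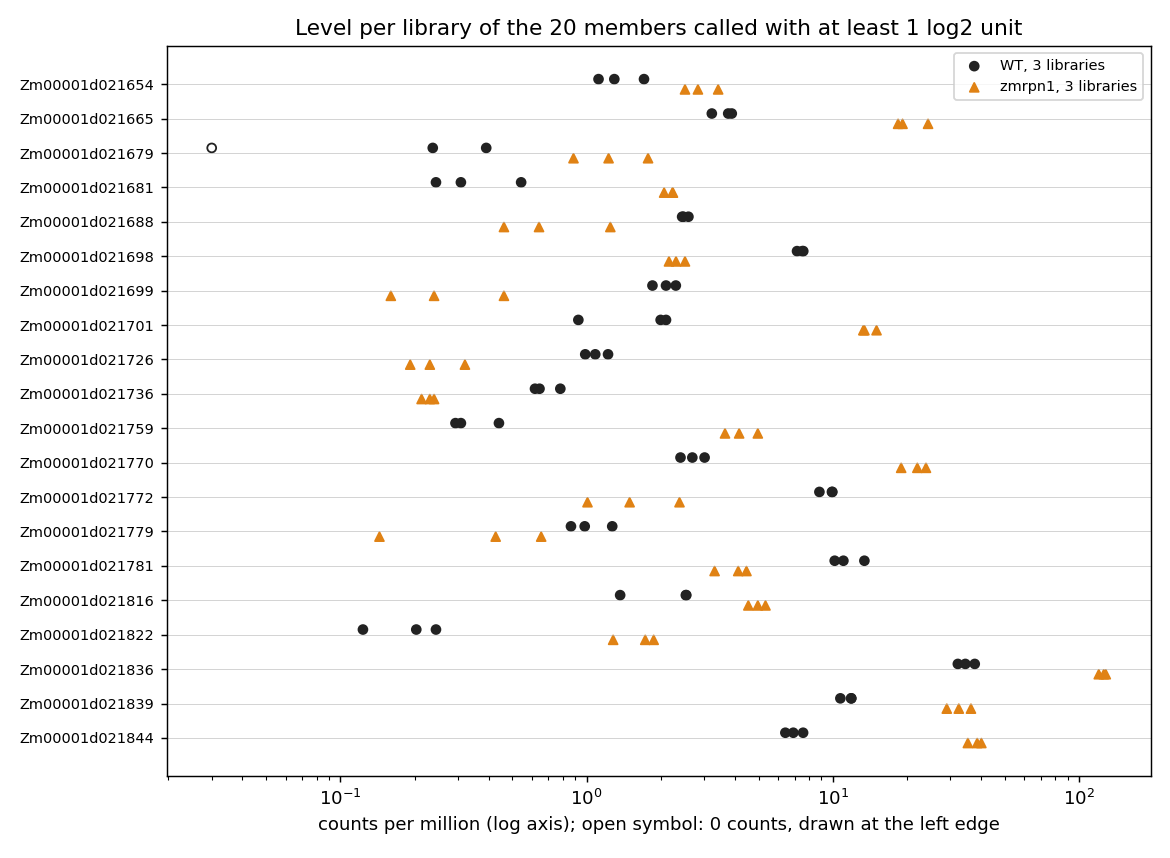
CPM (horizontal log axis) in each of the 6 libraries for the 20 members called with at least 1 log2 unit (vertical axis, in row order). Black circles are the 3 WT libraries, orange triangles the 3 zmrpn1 libraries and the open circle marks 0 counts; in every one of these genes the 2 groups do not overlap, and Zm00001d021836 reaches the highest level, 120.4 to 129 CPM in zmrpn1.

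Members 41 to 50, from Zm00001d021684 to Zm00001d021701, held the most calls among the 14 consecutive steps of 10 members, with 3 higher and 3 lower. Zm00001d021688 had 2.44, 2.59 and 2.47 CPM in WT and 0.641, 1.249 and 0.462 CPM in zmrpn1 and fell by 1.70 log2 units (SE 0.29). Its neighbours Zm00001d021686 and Zm00001d021689 were not called, at -0.15 (SE 0.081) and 0.20 (SE 0.11). Zm00001d021690 and Zm00001d021692 were both called higher. Zm00001d021690 had 75.5, 69.4 and 64.4 CPM in WT and 77.4, 84.0 and 88.9 CPM in zmrpn1, a rise of 0.25 log2 units (SE 0.063) whose call was lost without WT replicate 3 (0.19 log2 units). Zm00001d021692 had 4.94, 3.46 and 3.22 CPM in WT and 5.13, 5.67 and 8.12 CPM in zmrpn1, a rise of 0.72 log2 units (SE 0.18) whose call was lost without WT replicate 3 or zmrpn1 replicate 3 (0.48 to 0.57 log2 units).

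This group ended with 3 consecutive large changes. Zm00001d021698 had 7.53, 7.16 and 7.59 CPM in WT and 2.51, 2.16 and 2.31 CPM in zmrpn1 and was 3.19-fold lower in zmrpn1 and fell by 1.69 log2 units (SE 0.16). Zm00001d021699 had counts of 43, 30 and 68 in WT and of 3, 5 and 12 in zmrpn1, or 2.10, 1.85 and 2.30 CPM in WT and 0.160, 0.240 and 0.462 CPM in zmrpn1, and fell by 2.79 log2 units (SE 0.35), the largest fall among the members. Zm00001d021701 had 2.10, 0.926 and 1.999 CPM in WT and 15.1, 13.4 and 13.3 CPM in zmrpn1 and was 8.32-fold higher in zmrpn1, a rise of 2.97 log2 units (SE 0.16). A fall to near absence thus stood next to a rise from a low level. The members that frame the 3, Zm00001d021696 before and Zm00001d021702 after, both had lower CPM in every zmrpn1 library than in any WT library, but neither was called, at -0.17 (SE 0.075) and -0.24 (SE 0.089).

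The next 20 members, from Zm00001d021702 to Zm00001d021729, had 6 calls, of which 1 reached 1 log2 unit. They include the member with the most counts. Zm00001d021706 had 534, 509.6 and 521 CPM in WT and 488, 480.1 and 537 CPM in zmrpn1, and its neighbour Zm00001d021707 had 284, 273 and 263 CPM in WT and 254, 249.7 and 275 CPM in zmrpn1. Neither was called, at -0.069 (SE 0.053) and -0.085 (SE 0.054), and the groups overlapped in both. Members near them rose. Zm00001d021703 rose by 0.34 log2 units (SE 0.085). Zm00001d021708 had 7.28, 6.54 and 8.27 CPM in WT and 15.9, 13.3 and 14.0 CPM in zmrpn1, close to a doubling at 1.95-fold, and rose by 0.93 log2 units (SE 0.11).

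Zm00001d021709, with 93.6, 92.5 and 93.8 CPM in WT and 99.4, 104 and 119.9 CPM in zmrpn1, rose by 0.20 log2 units (SE 0.060), and its call was lost without WT replicate 1, 2 or 3 or zmrpn1 replicate 3 (0.11 to 0.21 log2 units) and with DESeq2. Zm00001d021711 rose by 0.47 log2 units (SE 0.11), a call that was lost without zmrpn1 replicate 3 (0.28 log2 units). Zm00001d021714 had 21.4, 17.4 and 19.96 CPM in WT and 33.6, 31.6 and 31.1 CPM in zmrpn1 and rose by 0.69 log2 units (SE 0.078), with no overlap between the groups. After it 6 members in a row were not called, from Zm00001d021715 to Zm00001d021724. They ended at Zm00001d021726, which had counts of 25, 16 and 32 in WT and of 6, 4 and 6 in zmrpn1, or 1.22, 0.987 and 1.08 CPM in WT and 0.320, 0.192 and 0.231 CPM in zmrpn1. It fell by 2.16 log2 units (SE 0.41) with every zmrpn1 library below every WT library. Zm00001d021724 and Zm00001d021728 on its sides were not called, at -0.10 (SE 0.35) and -0.15 (SE 0.17), and their groups overlapped. Without WT replicate 3, Zm00001d021728 was called lower, at -0.41 log2 units.

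Of the 10 members from Zm00001d021730 to Zm00001d021741, 3 were called, and of the next 10, up to Zm00001d021760, 2 were. Over all tested genes 12.4% were called. These called members had low counts, with 1 exception. Zm00001d021733 had 2.35, 2.53 and 2.78 CPM in WT and 1.34, 1.58 and 1.35 CPM in zmrpn1 and fell by 0.86 log2 units (SE 0.23), a call that was lost without WT replicate 3 (0.79 log2 units). Zm00001d021736 had counts of 16, 10 and 19 in WT and of 4, 5 and 6 in zmrpn1 and fell by 1.56 log2 units (SE 0.46). These few counts did not give a call in every fit: it was lost without WT replicate 1 or 3 or zmrpn1 replicate 1 or 3 (1.45 to 1.62 log2 units) and with DESeq2. Zm00001d021734 and Zm00001d021737, on the sides of Zm00001d021736, were not called, at -0.54 (SE 0.29) and -0.18 (SE 0.082). In Zm00001d021737 every zmrpn1 library lay below every WT library, while in Zm00001d021734 the groups overlapped. Zm00001d021738 rose by 0.70 log2 units (SE 0.21) and lost its call without WT replicate 2 or 3 or zmrpn1 replicate 1 or 3 (0.59 to 0.66 log2 units) and with DESeq2. Zm00001d021744, the exception in level, had 23.3, 25.2 and 21.2 CPM in WT and 18.3, 20.9 and 18.6 CPM in zmrpn1 and fell by 0.27 log2 units (SE 0.084), a call that was lost without WT replicate 1 or 2 or zmrpn1 replicate 1 or 3 (0.22 to 0.26 log2 units) and with DESeq2. Among these genes stood Zm00001d021741, which was not called and had 247, 254 and 247 CPM in WT and 261, 263 and 224 CPM in zmrpn1.

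The largest rise of the neighbourhood lay in the same stretch, after 7 members without a call from Zm00001d021745 to Zm00001d021757. Zm00001d021759 had counts of 6, 5 and 13 in WT and of 78, 76 and 129 in zmrpn1. This corresponds to 0.293, 0.309 and 0.440 CPM in WT and 4.17, 3.65 and 4.96 CPM in zmrpn1, a rise of 3.54 log2 units (SE 0.28) that ran from 3.40 to 3.79 when single libraries were left out. The change was not shared by the members next to it. Zm00001d021757 had 4.55, 3.95 and 3.12 CPM in WT and 4.22, 3.89 and 3.88 CPM in zmrpn1, with overlapping groups, and Zm00001d021760 had counts of 12, 10 and 17 in WT and of 8, 10 and 6 in zmrpn1. Neither was called, at 0.051 (SE 0.17) and -0.68 (SE 0.44).

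Positions 91 to 103 again mixed both directions among adjacent members. Zm00001d021762 had 19.7, 18.4 and 20.2 CPM in WT and 13.6, 14.2 and 13.9 CPM in zmrpn1 and fell by 0.50 log2 units (SE 0.086), while the next member, Zm00001d021763, had 6.79, 6.67 and 6.27 CPM in WT and 9.08, 9.36 and 10.1 CPM in zmrpn1 and rose by 0.53 log2 units (SE 0.12). Groups stood apart in both. After Zm00001d021764, which was not called at 0.13 (SE 0.069), came a pair of large changes in opposite directions. Zm00001d021770 had 2.69, 2.41 and 3.02 CPM in WT and 22.1, 23.9 and 19.0 CPM in zmrpn1, 8.01-fold higher in zmrpn1, a rise of 2.96 log2 units (SE 0.12). Zm00001d021772 had 9.92, 8.83 and 9.96 CPM in WT and 1.495, 1.01 and 2.38 CPM in zmrpn1, 5.87-fold lower in zmrpn1 and fell by 2.52 log2 units (SE 0.18). In neither gene did the groups overlap. Zm00001d021773, the next member, was not called, at -0.043 (SE 0.19).

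The longest run of called members was 4, from Zm00001d021778 to Zm00001d021784. It began with a rise and went on with 3 falls. Zm00001d021778 had 1.96, 2.10 and 2.24 CPM in WT and 3.52, 4.03 and 4.31 CPM in zmrpn1 and rose by 0.90 log2 units (SE 0.19). Zm00001d021779 had counts of 26, 14 and 29 in WT and of 8, 3 and 17 in zmrpn1 and was 2.54-fold lower in zmrpn1. The difference rests on few counts. On the log2 scale it was -0.91 without zmrpn1 replicate 2 and -1.90 without zmrpn1 replicate 3, and the call was lost without WT replicate 1 or 3 or zmrpn1 replicate 1 or 2 (0.91 to 1.36 log2 units) and with DESeq2. Zm00001d021781 had 13.4, 10.2 and 11.05 CPM in WT and 3.31, 4.13 and 4.46 CPM in zmrpn1 and fell by 1.54 log2 units (SE 0.14), with a wide gap between the groups. Zm00001d021784 had 8.36, 8.39 and 9.11 CPM in WT and 6.04, 7.30 and 6.73 CPM in zmrpn1 and fell by 0.38 log2 units (SE 0.12), a call that was lost without WT replicate 1, 2 or 3 or zmrpn1 replicate 1 or 3 (0.31 to 0.40 log2 units) and with DESeq2.

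After the run, up to Zm00001d021815, there were 4 calls among 17 members and none of 1 log2 unit. The share called over all tested genes was 12.4%. Zm00001d021791 had 15.3, 13.8 and 14.5 CPM in WT and 21.8, 19.4 and 26.2 CPM in zmrpn1, a rise of 0.62 log2 units (SE 0.095). Zm00001d021805 rose by 0.21 log2 units (SE 0.066) and lost its call without WT replicate 1 or 2 or zmrpn1 replicate 1, 2 or 3 (0.18 to 0.22 log2 units) and with DESeq2. Zm00001d021810 had the most counts of any called member, with 316, 324 and 323 CPM in WT and 293, 298 and 276 CPM in zmrpn1. Its zmrpn1 libraries lay below its WT libraries and it fell by 0.16 log2 units (SE 0.051), a call that was lost without WT replicate 1, 2 or 3 or zmrpn1 replicate 1 (0.16 to 0.17 log2 units). Zm00001d021813 had 2.59, 3.39 and 3.02 CPM in WT and 1.07, 1.10 and 2.31 CPM in zmrpn1 and fell by 0.96 log2 units (SE 0.25). It is the last called member that was lower in zmrpn1, and the 7 calls that follow it along the rows were all higher.

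The last 20 members, from Zm00001d021816 to Zm00001d021845, held these 7 rises and no called fall. Zm00001d021816 had 1.37, 2.53 and 2.54 CPM in WT and 4.54, 5.33 and 4.96 CPM in zmrpn1 and rose by 1.18 log2 units (SE 0.19). Zm00001d021822 had counts of 5, 2 and 6 in WT and of 24, 39 and 45 in zmrpn1, or 0.244, 0.123 and 0.203 CPM in WT and 1.28, 1.87 and 1.73 CPM in zmrpn1, a rise of 3.02 log2 units (SE 0.40) from very few counts in WT. The members beside them were not called: Zm00001d021815, with 237, 237 and 238 CPM in WT and 231, 219 and 222 CPM in zmrpn1, Zm00001d021817 at 0.15 (SE 0.065), Zm00001d021821 at 0.0092 (SE 0.075) and Zm00001d021823 at -0.0096 (SE 0.077). Without zmrpn1 replicate 1, Zm00001d021817 was called higher, at 0.21 log2 units. Zm00001d021828 had 61.1, 71.4 and 73.8 CPM in WT and 84.9, 84.2 and 72.9 CPM in zmrpn1. Zm00001d021831 had 37.3, 30.9 and 32.2 CPM in WT and 44.8, 40.7 and 36.2 CPM in zmrpn1. In each of these 2 genes 1 zmrpn1 library lay below the highest WT library. They rose by 0.21 log2 units (SE 0.064) and 0.26 log2 units (SE 0.076). The call of Zm00001d021828 was lost without WT replicate 1 or zmrpn1 replicate 1 or 2 (0.14 to 0.18 log2 units) and with DESeq2, and that of Zm00001d021831 without WT replicate 2 or 3 or zmrpn1 replicate 1 (0.19 to 0.22 log2 units) and with DESeq2.

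The end of the range held 3 large rises, each separated from the next by members that were not called. Zm00001d021836 had 37.7, 34.6 and 32.2 CPM in WT and 120.4, 126 and 129 CPM in zmrpn1, which is 3.59-fold higher in zmrpn1 and a rise of 1.84 log2 units (SE 0.062). Zm00001d021839 had 11.9, 10.7 and 11.9 CPM in WT and 29.1, 32.5 and 36.4 CPM in zmrpn1, a rise of 1.49 log2 units (SE 0.089). Zm00001d021844 had 7.58, 6.42 and 6.91 CPM in WT and 38.6, 40.1 and 35.4 CPM in zmrpn1, 5.46-fold higher in zmrpn1 and a rise of 2.43 log2 units (SE 0.089). Leaving out any single library moved these rises by at most 0.095 log2 units.

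The members between and around these 3 genes showed no rise of that size. Zm00001d021835 had 47.8, 50.3 and 47.1 CPM in WT and 45.9, 42.5 and 44.4 CPM in zmrpn1 and a log2 value of -0.14 (SE 0.061). Its zmrpn1 libraries all lay below its WT libraries. Zm00001d021838, between the first of the 3 and the next, had 33.8, 33.7 and 34.5 CPM in WT and 35.3, 37.2 and 32.6 CPM in zmrpn1 and 0.027 (SE 0.067). Zm00001d021840 was at 0.58 (SE 0.23), with every zmrpn1 library above every WT library. Zm00001d021842 was at -0.12 (SE 0.12), Zm00001d021843 at -0.29 (SE 0.13) and the final member, Zm00001d021845, at -0.18 (SE 0.078). None of these was called, although the last was called lower without zmrpn1 replicate 2, at -0.25. Past the end, Zm00001d021846 had 129, 144 and 153 CPM in WT and 131, 141 and 119.8 CPM in zmrpn1 and was not called, and 1 of the 10 following rows that met the count minimum was called, Zm00001d021850, which rose by 0.28 log2 units (SE 0.068).

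**Figure D3:**
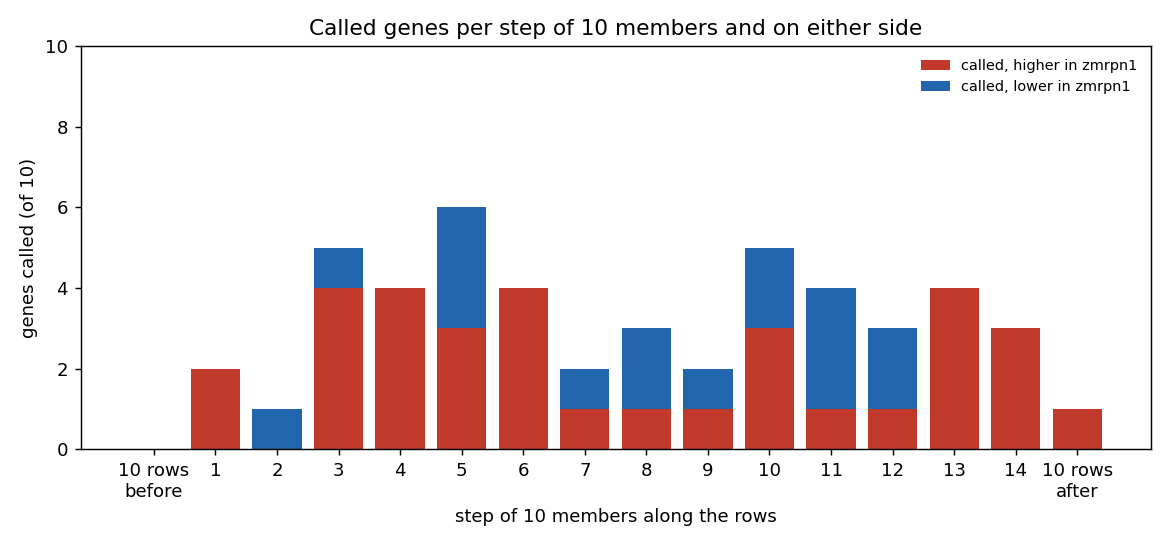
Number of called genes (vertical axis, of 10) in each of the 14 consecutive steps of 10 members along the rows, and in the 10 rows that met the count minimum on either side (horizontal axis). Red is higher and blue is lower in zmrpn1; steps held 1 to 6 calls, the 10 rows before held 0 and the 10 rows after held 1.

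The 48 called members formed 34 runs along the member order, 24 of them a single member with no called neighbour. There were 7 runs of 2, 2 runs of 3 and 1 run of 4. Among the 14 pairs of adjacent members that were both called, 5 were both higher, 3 were both lower and 6 went in opposite directions. The 20 members with changes of at least 1 log2 unit had 26 uncalled members directly beside them. Their log2 values ran from -0.68 to 0.58 with a median of -0.097, and 19 of the 26 lay within 0.25 log2 units of 0. These small differences follow in part from their being uncalled. A missed call does not show that a gene was the same in both genotypes.

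Of 28 members that averaged at least 50 CPM over the 6 libraries, 5 were called higher and 1 was called lower, where 12.6% of all tested genes at that level were called. The 15 uncalled members with the highest CPM, whose small differences follow in part from their being uncalled, from Zm00001d021785 at 78.4 CPM to Zm00001d021706 at 512 CPM, had log2 values between -0.095 and 0.079 with SE of 0.050 to 0.067. Taken with 2 SE on either side these values stayed between -0.20 and 0.19. Besides genes already described, they include Zm00001d021652, with 190.3, 186 and 198 CPM in WT and 188, 182 and 199 CPM in zmrpn1, and Zm00001d021806, with 105, 112 and 109 CPM in WT and 118, 120.0 and 102 CPM in zmrpn1. The groups overlapped in both. The rest of the 15 were Zm00001d021623, Zm00001d021636, Zm00001d021721, Zm00001d021754, Zm00001d021790 and Zm00001d021802. Their log2 values were -0.027, 0.018, 0.013, -0.051, 0.079 and -0.080. Only in Zm00001d021802 of these did the groups stand apart, with zmrpn1 below WT. At the other end, 42 members averaged under 5 CPM, of which 40 were tested and 18 were called, where 11.7% of all tested genes at that level were called. The range was chosen for its calls, so these shares too are only set side by side.

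Most members called with large changes had few counts, which follows in part from how they were picked. The median WT level was 2.12 CPM for the 20 members called with at least 1 log2 unit, 13.7 CPM for the other 28 called members and 22.4 CPM for the members that were not called. Members picked for a large rise have a low WT level in part by that choice. Over the 6 libraries the medians were 2.92, 15.8 and 22.2 CPM. The median SE in these sets was 0.22, 0.094 and 0.082 log2 units, so a change of a given size was harder to call in the first set than in the others. With few counts mainly large changes can be called, so this order of levels is a description only. The exceptions with higher levels were Zm00001d021836, Zm00001d021839, Zm00001d021844, Zm00001d021770, Zm00001d021665 and Zm00001d021701, each of which exceeded 10 CPM in every zmrpn1 library, and Zm00001d021781, which did so in every WT library.

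**Figure D4:**
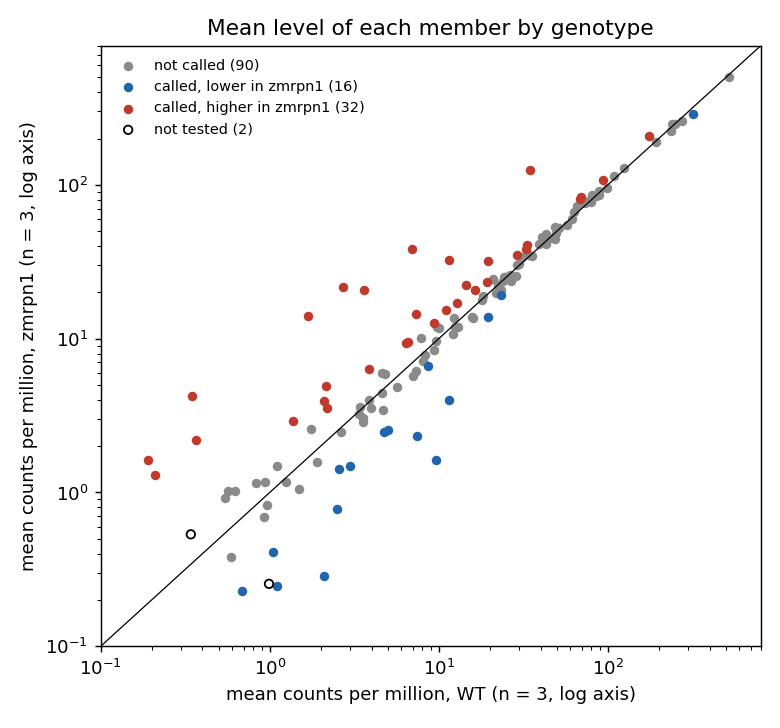
Mean CPM in zmrpn1 (vertical log axis, n = 3) against WT (horizontal log axis, n = 3) for each of the 140 members, with the line of equal levels. Red points are called higher, blue called lower, grey not called and open circles not tested; 6 of the 28 members with a mean of at least 50 CPM are coloured, and points far from the line are mostly at low levels, with Zm00001d021836 the farthest above it among genes over 30 CPM in WT.

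Summed over the 140 members, the neighbourhood took 5180, 5176 and 5166 CPM in the WT libraries and 5446, 5422 and 5421 CPM in the zmrpn1 libraries. The sum was higher in each zmrpn1 library than in each WT library, at 5429 ± 14.3 against 5174 ± 7.01 CPM (mean ± SD, n = 3). The 32 members called higher took 701 ± 16.9 CPM in WT and 1052 ± 20.6 CPM in zmrpn1. The 16 called lower took 423 ± 2.83 and 347 ± 11.4 CPM. The remaining 92 members took 4050 ± 12.5 and 4031 ± 26.5 CPM, and their groups overlapped. The difference of 256 CPM is a net of 351 CPM in the members called higher, -76.6 CPM in those called lower and -19.1 CPM in the rest. Zm00001d021836 alone rose by 90.2 CPM, which equals 35.3% of this net difference and a smaller share of the rises. These sums carry the same calls that chose the range and are a description.

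The count minimum decided membership for a few rows. Just inside it were Zm00001d021736 and Zm00001d021632, given above, and Zm00001d021760. Just outside were Zm00001d021628, with 9, 9 and 8 counts in the WT libraries and 9, 23 and 22 in the zmrpn1 libraries, Zm00001d021674, with 10, 7 and 6 against 9, 6 and 9 counts, and Zm00001d021697, with 11, 5 and 13 against 3, 7 and 2 counts. The groups overlapped in all 3 of these outside rows. Among the members, Zm00001d021679 and Zm00001d021822 reached 10 counts only in zmrpn1 libraries. Zm00001d021683, Zm00001d021726 and Zm00001d021736 reached 10 counts only in WT libraries. Their membership thus rested on the group in which they were higher, and their changes are only described.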

How the data were processed

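Total RNA of maize anthers gave 3 WT and 3 zmrpn1 libraries (NEBNext Ultra II, per the labels' protocols). The authors deposited unnormalized whole-number counts for each gene. Tools listed in the submitters' processing notes, without settings, are HISAT2 2.2.1 and featureCounts 1.6.4 on B73 RefGen_v4, with Trimmomatic 0.39, DESeq2 and StringTie 1.3.6. Columns were matched to samples by genotype code and replicate number.

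The count table was analysed whole with edgeR 4.0.16 in R 4.3.3: filterByExpr (minimum count 10), TMM scaling and a robust quasi-likelihood F test with Benjamini-Hochberg adjustment over 23477 genes. The SE of a log2 change was taken as its size over the root of its F value. CPM is the count over the column sum, times 1000000. The common biological coefficient of variation was 5.16%. Library pairs within groups differed by more than sampling noise (chi-square per degree of freedom 2.03 to 4.87). The test was checked on simulated data.

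The range, its members and the rules for naming genes were chosen with earlier results of these data known. Named were every called member, uncalled members beside changes of at least 1 log2 unit, the 15 uncalled members with the highest CPM, 3 rows on either side of the count minimum and the nearest rows outside the range; a few others were chosen after their values were seen. Marker lists could not be applied without gene names. Alternatives were other scalings, filters, thresholds and tests (DESeq2 1.42.0, limma-voom 3.58.1), a replicate block and each library left out in turn. The labels give no batch or date.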

Additional observations from a re-analysis of the deposited data

How the results depend on the processing

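Calls and sizes were recomputed in 14 other fits. No called member changed direction in any of them, and 31 of the 48 called members kept their call in every fit that gave a value, while 17 lost it in at least 1. Among the 20 members called with at least 1 log2 unit only Zm00001d021736 and Zm00001d021779 lost it. Of 40 uncalled members followed, 4 were called in some fit. With the 3 other scalings, limma-voom and no filter on low counts all 48 were called alike, and with DESeq2 37 were. Requiring at least 1 log2 unit left 12 members higher and 8 lower, and 253 and 390 of all genes, and an adjusted p under 0.01 left 25 members higher and 11 lower, and 1011 and 915 of all genes, by construction. Leaving out 1 library gave 25 to 29 members higher and 11 to 17 lower, and 1184 to 1421 and 1033 to 1339 of all genes. The summed CPM of the members was 5202 in WT and 5412 in zmrpn1 with TMM-scaled library sizes. The count of members was 144, 129 and 125 under other count minimums. With the replicate number as a block (replicate block), 33 members were higher and 16 lower, and all 48 calls held. The labels do not say if same-numbered libraries were paired. Correlations of same-numbered libraries' deviations from their group means were -0.037, 0.020 and 0.031. No shared deviation was thus seen, which does not show that the libraries were unpaired. Depth limits precision at low levels: the median SE was 0.22 log2 units in the members called with at least 1 log2 unit, at a median WT level of 2.12 CPM, and 0.082 in uncalled members, at 22.4 CPM.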

Other observations

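Reads were also counted on rows that stand among these genes in the table but are no members. Of the 12 interspersed rows with identifiers from outside the range, Zm00001d001263 had counts of 41, 41 and 75 in WT and of 29, 30 and 28 in zmrpn1. Every zmrpn1 library lay below every WT library in CPM, and the edgeR fit called it lower at -0.83 log2 units (SE 0.24). Zm00001d001267 had counts of 102, 77 and 177 in WT and of 107, 87 and 137 in zmrpn1, with overlapping groups in CPM, and was not called at -0.085 (SE 0.15). The other 10 rows had at most 12 counts over the 6 libraries.

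The 34 rows of the range with counts under the minimum had 1 to 80 counts over the 6 libraries, and 12 of them had 10 or more. Of the 34, 8 had 0 counts in all WT libraries and 6 had 0 in all zmrpn1 libraries. Zm00001d021700, between the fallen Zm00001d021699 and the risen Zm00001d021701, had 2, 5 and 0 counts in the zmrpn1 libraries and 0 in each WT library. These rows were named after their values were seen.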
